A study of Mus musculus with 2 samples.

Results

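Genes of cholesterol and fatty acid synthesis that sterol regulatory element-binding proteins (SREBPs) govern were read in cultured mouse embryonic fibroblasts. The set was a fixed list of 29 genes, all of which were found by symbol among the 24015 genes of the expression table. It held 17 enzymes of the sterol branch, 6 enzymes of the fatty acid branch, 5 regulators and the sterol transfer gene Stard4. The rule uses no measured value, but the list was drawn up with earlier results of these data known. Of the 29 genes, 28 reached 1 RPKM (reads scaled to gene length and library size) in a library and were compared, while Hmgcs1 was listed at 0 in both libraries.

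The study grew fibroblasts with the genotype Adar2+/+ and fibroblasts with the genotype Adar2-/- in DMEM with fetal bovine serum and antibiotics. Adar2, listed as Adarb1, encodes an RNA-editing enzyme that turns adenosine into inosine in double-stranded RNA. Each genotype had 1 poly(A)+ RNA-seq library, and the labels do not say how many embryos or cultures stood behind it. The values rested on 9446911 reads in the library from Adar2+/+ cells and 9546998 reads in the library from Adar2-/- cells. With 1 library per genotype the spread between cultures is unknown, and no test of the genotypes was possible.

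Facts about the libraries touch every direction given here. Adarb1 stood at 18.4 RPKM in the library labelled Adar2-WT and at 25.8 RPKM in the library labelled Adar2-KO. A value over the whole gene does not check a deletion of part of it, so the libraries are called WT-labelled and KO-labelled. The cultures also differed at many other genes, since among the 13867 genes compared 12% stood at least 1.5-fold below and 8.99% at least 1.5-fold above their WT-labelled level. Adar, which encodes a related editing enzyme, had 28.05 and 18.7 RPKM, and Cdkn2a, a brake on the cell cycle, had 57.7 and 0.0922 RPKM. All 12 fibroblast markers read were above 1 RPKM in both libraries, with a summed level of 610.1 and 634.6 RPKM, although Thy1 (9.40 and 72.1 RPKM) and Dcn (29.7 and 12.3 RPKM) differed. Summed levels in the WT-labelled and KO-labelled library were 62.0 and 53.7 RPKM for 10 adipocyte markers, with Plin1 and Lep at 0 in both and Adipoq at 0.172 and 0. Most of that sum was Fabp4 (39.6 and 42.5 RPKM). Lipe (10.5 and 6.08 RPKM), Pparg (4.43 and 1.21), Lpl (3.97 and 1.24) and Cidec (2.99 and 2.58) were lower in KO-labelled cells. Leukocyte markers summed to 32.6 and 34.9 RPKM and neural markers to 53.9 and 34.4 RPKM. Endothelial markers summed to 3.998 and 0.409 RPKM, epithelial markers to 2.35 and 1.77 RPKM, muscle markers to 0.760 and 0.342 RPKM and hepatocyte markers to 0.0507 and 0.131 RPKM. The part of the differing cultures in the results below was not tested. In such bulk RNA, fewer cells of a type and less RNA per cell cannot be told apart.

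SREBPs are made as precursors in the membrane of the endoplasmic reticulum, where SCAP escorts them to the Golgi for cleavage and INSIG proteins hold SCAP back when sterols are plentiful. The freed fragment enters the nucleus and switches on genes of lipid synthesis together with the factors NF-Y and Sp1. SREBP-2, from Srebf2, is known mainly for the cholesterol genes, and SREBP-1c, from Srebf1, mainly for the fatty acid genes. Fibroblasts in culture make their own cholesterol and fatty acids to build membranes, beside what they take up from serum.

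Sterol synthesis genes were lower in KO-labelled cells, nearly all of them by a modest step, while fatty acid synthesis genes went both ways by small steps. Of the 16 sterol genes compared, 15 had the lower value in KO-labelled cells, where 49.2% of all genes compared did and 50.8% had the higher value. All 28 members compared reached 10 RPKM, and 47.6% of the 10375 genes at that level were lower. The 16 sterol genes had a median log2 ratio of -0.28 on the scale of RPKM + 1. The median was 0.01 for all genes compared and -0.03 for the 6 fatty acid genes. The regulators had a median of 0.12, with Srebf1, Srebf2 and Scap above 0 and Insig1 and Insig2 below. Without Srebf1 and Scap, whose exons overlap other genes, the regulator median was -0.056, a setting chosen after seeing the data.

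**Figure D1:**
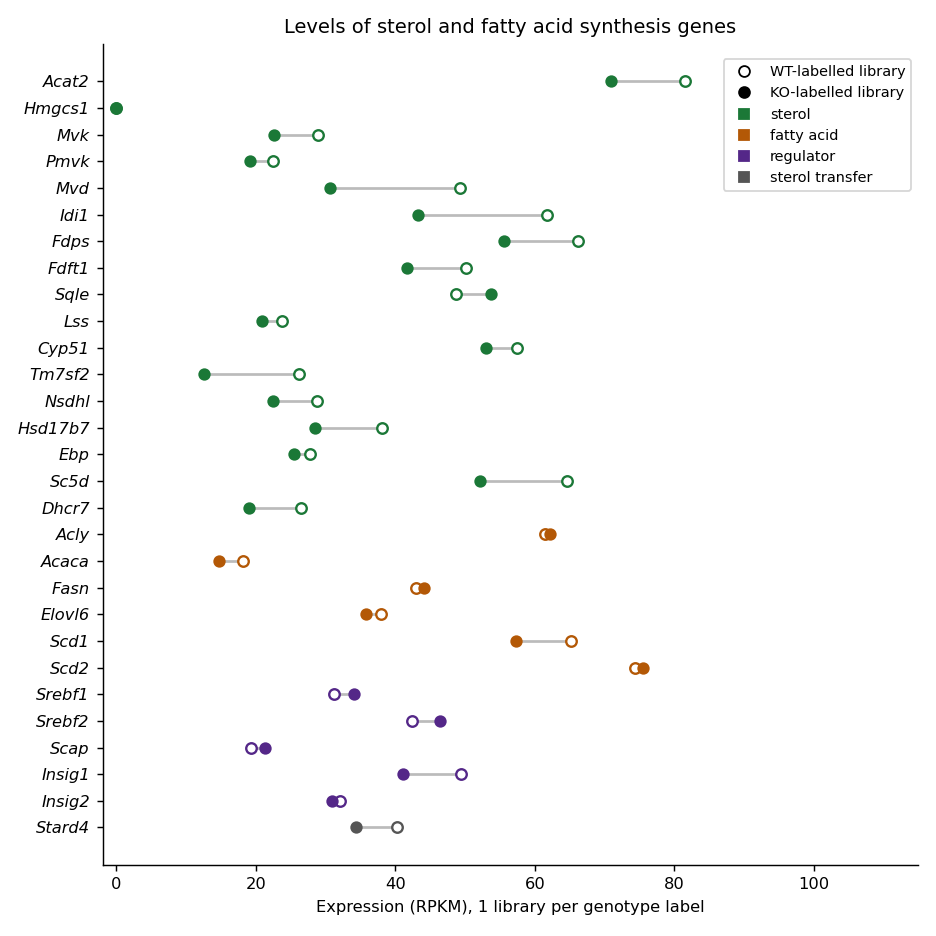
Expression of the 29 genes in RPKM (x axis), with 1 open point for the WT-labelled and 1 filled point for the KO-labelled library, coloured by branch. The filled points lie to the left of the open ones for 15 of the 16 sterol genes above 0, by most for Mvd (49.2 and 30.6 RPKM), Idi1 (61.7 and 43.2) and Tm7sf2 (26.2 and 12.5), and Hmgcs1 is at 0.

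Counting error was set against each difference through the whole reads behind the RPKM values. For 13 of the 16 sterol genes the exact 95% interval of the log2 reads ratio lay below 0, and for 1 it lay above 0. For the 6 fatty acid genes it lay below 0 in 2 and above 0 in 0. Among all genes with recovered reads, 26.6% had an interval below 0 and 27.3% above 0, so that an interval off 0 was common in these libraries. The share below 0 was 24.9% among genes with at least 10 RPKM. The authors' deposited GFOLD value, a log2 fold change shrunken toward 0, was below 0 for 11 of 16 sterol genes and above 0 for 1, and below 0 for 2 of 6 fatty acid genes and above 0 for 1, beside 20.2% and 29.7% of all genes. Summed over the 16 genes, sterol transcripts took 16648 of the WT-labelled and 13864 of the KO-labelled reads, a log2 ratio per total reads of -0.28 (95% interval -0.31 to -0.25). The 6 fatty acid genes took 16728 and 16307 reads, a log2 ratio of -0.05 (-0.08 to -0.02). Several read numbers fit Acly, Fasn and Scd2, and the smallest were used in this sum. These intervals cover counting error only and leave out the spread between cultures. Few members passed a fold threshold, with 2 of 16 sterol genes at least 1.5-fold lower, a share near the 12% of all genes (6.9% of those with at least 10 RPKM), and 0 of 16 at least 1.5-fold higher.

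**Figure D2:**
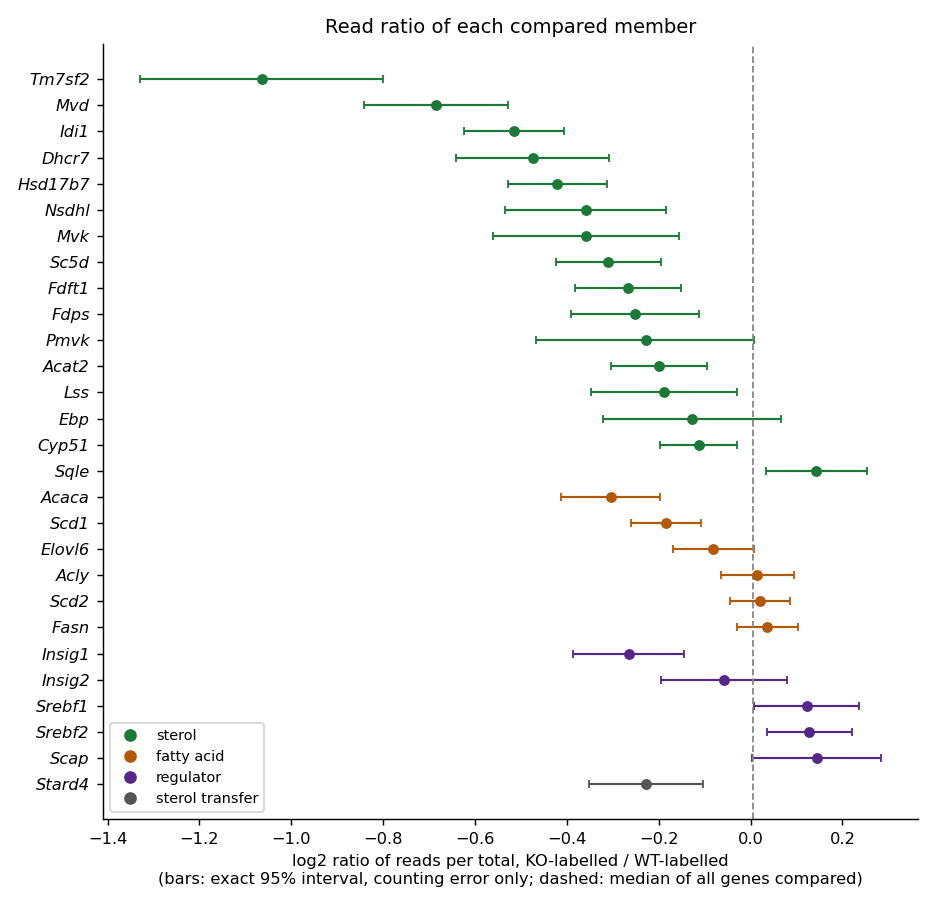
Log2 ratio of reads per total, KO-labelled over WT-labelled (x axis), for the 28 genes compared, with exact 95% intervals for counting error as bars and the median of all genes compared as a dashed line. The sterol genes run from Tm7sf2 at -1.06 to Sqle at 0.14, and the fatty acid genes from Acaca at -0.30 to Fasn at 0.04.

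The early steps turn acetyl-CoA into the isoprenoid farnesyl diphosphate, and all 6 genes compared there were lower in KO-labelled cells (median log2 ratio -0.30). Acat2, the cytosolic thiolase that joins acetyl groups at the start, had the highest level of all members in WT-labelled cells, at 81.5 RPKM, and 70.9 RPKM in KO-labelled cells. Its close copy Acat3 had 57.9 and 53.6 RPKM, and how shared reads were split is not given in the sources used here. Hmgcs1, the next enzyme, was listed at 0 in both libraries, so no level can be given for it. Mvk, the mevalonate kinase, had 28.97 RPKM (454 reads) and 22.6 RPKM (358 reads). Pmvk, the kinase of the following step, had 22.5 and 19.2 RPKM, and its interval reached past 0 (-0.47 to 0.01).

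Among the early genes compared, the gene for the decarboxylation of mevalonate diphosphate differed most. Mvd, which makes isopentenyl diphosphate, had 49.2 RPKM (867 reads) in WT-labelled cells and 30.6 RPKM (545 reads) in KO-labelled cells. That is 62.2% of the WT-labelled level, and the log2 reads ratio had an interval of -0.84 to -0.53. Idi1, the isomerase that supplies the reactive partner, had 61.7 RPKM (1671 reads) and 43.2 RPKM (1182 reads), or 69.99% (interval -0.62 to -0.41). Fdps, which builds farnesyl diphosphate, was closer, at 66.2 and 55.6 RPKM (-0.39 to -0.11). Its exons overlap those of Gm43738 on the same strand, for which no level is listed. The authors' deposited table gives Mvd a GFOLD value of -0.45, and Idi1 one of -0.33.

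From squalene onward, 9 of the 10 genes were lower in KO-labelled cells (median log2 ratio -0.28). Fdft1, squalene synthase and the first enzyme given to sterols alone, had 50.2 RPKM (1357 reads) and 41.7 RPKM (1140 reads). Sqle, squalene epoxidase and a known control point of the pathway, was the 1 sterol gene above its WT-labelled level. It had 48.7 RPKM (1263 reads) in the WT-labelled and 53.7 RPKM (1410 reads) in KO-labelled cells, an interval of 0.03 to 0.25. Lss, which closes the rings to lanosterol, had 23.8 and 20.9 RPKM (-0.35 to -0.03). Cyp51, the lanosterol demethylase, was nearly level at 57.4 and 53.0 RPKM (-0.20 to -0.03). Exons of Fdft1 overlap those of Ctsb (46.4 and 32.4 RPKM), and exons of Lss those of 4930483K19Rik (9.24 and 7.11 RPKM). Those of Cyp51 overlap Akap9 (11.2 and 14.5 RPKM). All of these overlaps are on the other strand, and their part in the values was not tested.

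Tm7sf2, a sterol C14 reductase, showed the largest difference of all 28 genes. It had 26.2 RPKM (366 reads) in WT-labelled cells and 12.5 RPKM (177 reads) in KO-labelled cells, which is 47.9% of the WT-labelled level (log2 reads ratio -1.06, interval -1.33 to -0.80). It was the only member at least 2-fold lower, beside 7.46% of all genes, and 0 members were at least 2-fold higher, beside 4.42% of all genes. Exons of Tm7sf2 overlap those of Vps51 on the same strand in the GENCODE M21 annotation, and Vps51 was higher in KO-labelled cells (20.2 and 27.5 RPKM). How reads in the overlap were assigned is not given in the sources used here, and its part in the difference was not tested.

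The demethylation, isomerisation and reduction steps that finish cholesterol differed by less. Nsdhl, the decarboxylating dehydrogenase, had 28.8 and 22.5 RPKM (interval -0.54 to -0.18). Its partner Hsd17b7, the 3-ketosteroid reductase, had 38.1 RPKM (1646 reads) and 28.5 RPKM (1243 reads), with an interval of -0.53 to -0.31. Ebp, the sterol isomerase, had 27.7 and 25.4 RPKM, and its interval spanned 0 (-0.32 to 0.07). These values place Hsd17b7 among the more different steps and Ebp among those not separable from equality at this depth. Sc5d, the sterol desaturase, had 64.6 and 52.1 RPKM (-0.42 to -0.19). Dhcr7, which reduces the last ring double bond of one route, had 26.5 RPKM (704 reads) and 19.0 RPKM (512 reads), or 72.0% (-0.64 to -0.31).

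The sterol genes, of which 15 of 16 compared were lower in KO-labelled cells, are known to share regulators, so promoter sequence was looked at. RefSeq windows of the GRCm38.p6 build, 300 bases each with 50 of them after a start, were matched by symbol for 23 of the 29 members. Letters searched on both strands were TCACNCCAC for the sterol regulatory element, CCAAT for NF-Y and GGGCGG for Sp1, and the ATCA form of the sterol regulatory element was searched beside them. Both element forms end in CCAC and can overlap. The stretches below, each 30 bases on the strand of the gene, hold the 2 sterol element matches and, for each other gene, 1 of its CCAAT matches within 100 bases before the start, with the match in capitals (ATTGG is CCAAT read on the other strand). They show sterol genes among those that differed most beside Fasn of the fatty acid branch. Positions count from 0 at the annotated start and name the first base of the match.
Hmgcs1, TCACNCCAC at -137, plus strand, chr13:119690204-119690233: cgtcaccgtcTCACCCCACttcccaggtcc
Acly, ATCA form at -159, minus strand, chr11:100528140-100528169: ccctgaaacgATCAGGCCACagcccccagc
Mvd, CCAAT at -60, minus strand, chr8:122443465-122443494: ggcctgtcgcctATTGGacagcacgggaaa
Tm7sf2, CCAAT at -47, minus strand, chr19:6067880-6067909: ctcccagcgctgATTGGctactgtgctggg
Idi1, CCAAT at -45, plus strand, chr13:8885549-8885578: tgcctccagctgATTGGcgagcccgggcat
Hsd17b7, CCAAT at -73, minus strand, chr1:169969261-169969290: tgccgagtcgcgATTGGcgggcctaacgcg
Fasn, CCAAT at -90, minus strand, chr11:120824620-120824649: ccgcgcgccgccATTGGgccaccgagaacg

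CCAAT was in the window of 13 of 14 sterol genes, 2 of 4 fatty acid genes and 4 of 5 regulators, beside 41.1% of all 27025 genes of the RefSeq table and 43.2% of the 9980 compared genes with a window. Acat2 was the sterol gene without it. GGGCGG was in 13 of 14 sterol genes, 1 of 4 fatty acid genes and 5 of 5 regulators. The share was 68.3% of the compared genes and 72.2% of those with at least 10 RPKM. The sterol element letters were rare: TCACNCCAC was in Hmgcs1 alone of the 23 members (1.40% of compared genes) and the ATCA form in Acly alone (0.711%). A gene with no match lacks these letters in this window and nothing more, and a match is a description of sequence. Sqle, the sterol gene with the opposite direction, was not among the 23.

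**Figure D3:**
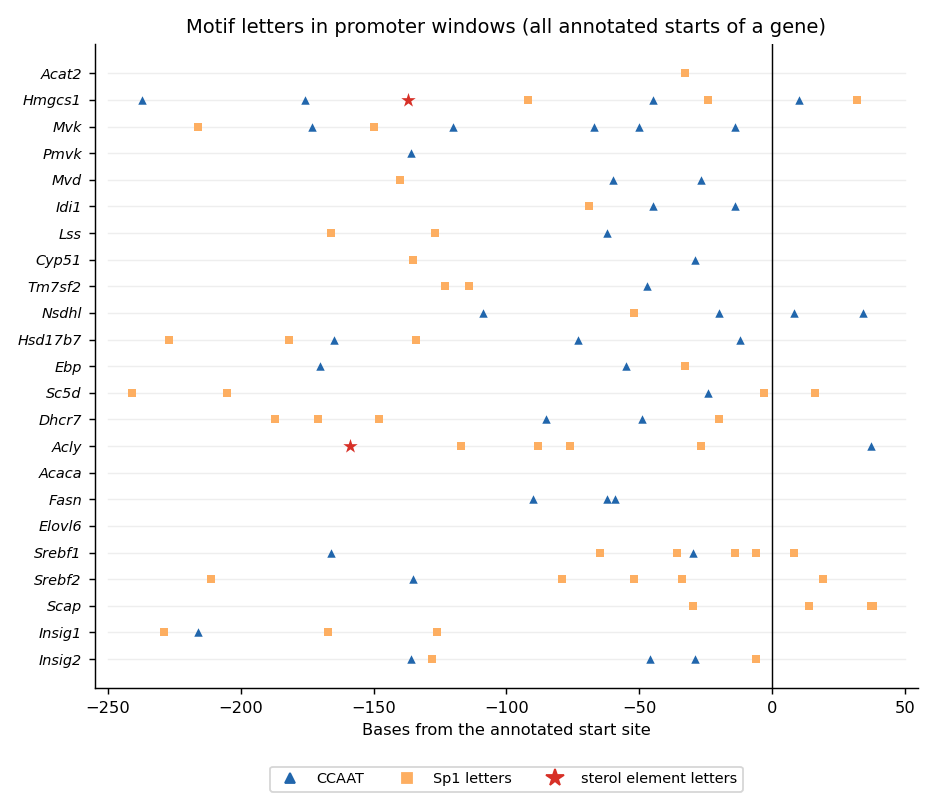
Position of motif letters in bases from the annotated start (x axis) for the 23 members with a RefSeq promoter window, each match drawn at its first base and all annotated starts of a gene pooled on 1 row. Triangles (CCAAT) fall in the 150 bases before the start for 13 of 14 sterol genes, and stars (sterol element letters) appear in Hmgcs1 and Acly.

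Of the fatty acid synthesis genes, 3 of 6 were lower and 3 of 6 higher in KO-labelled cells, with 0 of 6 past 1.5-fold. Acly, which cuts citrate to supply acetyl-CoA to both branches, had 61.5 and 62.1 RPKM. Fasn, the fatty acid synthase, had 42.9 and 44.0 RPKM, and the desaturase gene Scd2 had 74.4 and 75.4 RPKM. The intervals of all 3 spanned 0 (Acly -0.06 to 0.09, Fasn -0.03 to 0.10, Scd2 -0.04 to 0.09). Within counting error alone, the reads placed these log2 ratios at no more than about 0.10 either way. The ceiling on reads per base described below is not covered by these intervals, and its part in these ratios was not tested.

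The remaining fatty acid genes were lower in KO-labelled cells. Acaca, acetyl-CoA carboxylase and the committed step of the branch, had 18.1 RPKM (1546 reads) and 14.7 RPKM (1265 reads), or 81.0% (interval -0.41 to -0.20). Scd1, which like Scd2 places the first double bond in saturated fatty acids, had 65.1 RPKM (2977 reads) and 57.3 RPKM (2647 reads), an interval of -0.26 to -0.11. Elovl6, the elongase of palmitate, had 37.9 and 35.8 RPKM (-0.17 to 0.01). The level of Scd1 relative to Scd2 per length was 0.876 in WT-labelled cells and 0.760 in KO-labelled cells. The desaturase genes lie side by side as similar copies, with Scd3 (1.92 and 1.84 RPKM) and Scd4 (1.55 and 1.81 RPKM), and how shared reads were split is not given in the sources used here.

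Set side by side, the branches overlapped in their ratios but not in their middles. The sterol median lay -0.25 from the fatty acid median on the log2 scale. Of the 16 sterol genes, 15 lay below the fatty acid median and 8 lay below Acaca, the lowest fatty acid gene. With 1 library per genotype the difference between the branches was not tested. The order of levels was kept in broad terms, with a Spearman correlation of 0.93 between the libraries over 28 genes, a description of points that share their libraries. Most members were abundant, with 17 of 28 at or above 33.4 RPKM, the upper quartile of all genes compared in WT-labelled cells.

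**Figure D4:**
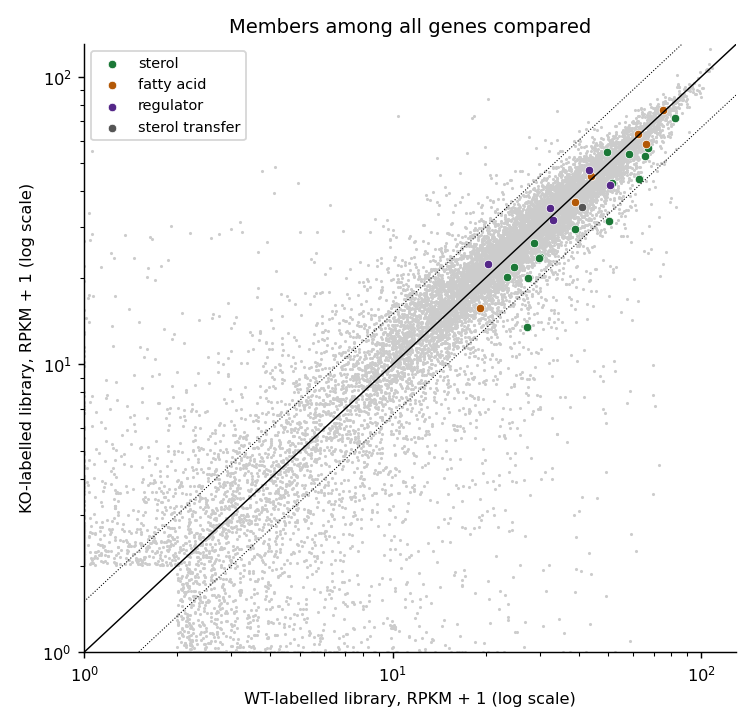
RPKM + 1 in the WT-labelled (x axis) against the KO-labelled library (y axis), both on log scales, for 13867 genes (grey) and the 28 members compared (coloured), with lines for equality (solid) and 1.5-fold (dotted). The sterol genes lie below the line of equality except Sqle, only Mvd and Tm7sf2 are past the lower 1.5-fold line, and of the fatty acid genes Acly, Fasn and Scd2 lie nearest to equality and Acaca lowest.

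A ceiling on reads per base stood beside these ratios. Reads per base reached at most 1.01 in WT-labelled and 1.19 in KO-labelled cells over all genes. Acat2 reached 0.770 and 0.677 reads per base, Scd2 0.703 and 0.720, and Tm7sf2 0.247 and 0.120. The 7 sterol genes above 50 RPKM in a library, Sqle among them through its KO-labelled value alone, had a median log2 ratio of -0.25. The other 9 had one of -0.35. For the fatty acid branch the median was -0.03 over all 6 genes and -0.08 over the 3 not above 50 RPKM. Among all genes, 93.8% of those above 50 RPKM lay within 1.5-fold, beside 86.8% of those at 10 to 50 RPKM. Whether the ceiling took part in these values was not tested.

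The regulators differed by small steps and in both directions. Srebf2, the precursor of SREBP-2, had 42.4 RPKM (1831 reads) in WT-labelled cells and 46.3 RPKM (2022 reads) in KO-labelled cells, an interval of 0.04 to 0.22. Srebf1, whose value pools the SREBP-1a and SREBP-1c forms, had 31.2 and 34.01 RPKM (0.01 to 0.24), and its exons overlap those of Rai1 on the other strand (18.8 and 28.97 RPKM). Scap, the escort, had 19.3 and 21.3 RPKM (0.003 to 0.28). All 3 were thus slightly higher in KO-labelled cells, at the edge of counting error for Srebf1 and Scap. The level of Srebf2 relative to Srebf1 was the same to 2 digits, 1.36 in both libraries.

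Insig1, a retention protein that is itself a known SREBP target, was lower in KO-labelled cells. It had 49.4 RPKM (1236 reads) in WT-labelled cells and 41.1 RPKM (1039 reads) in KO-labelled cells, or 83.2% (interval -0.39 to -0.15). Insig2, its relative, had 32.1 and 30.9 RPKM, and its interval spanned 0 (-0.19 to 0.08). Stard4, which carries sterols between membranes, had 40.2 RPKM (1133 reads) and 34.3 RPKM (978 reads), or 85.4% (-0.35 to -0.10).

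Other genes of cholesterol synthesis, cofactors included, had the same direction. Of 9 compared, 8 were lower in KO-labelled cells (49.2% of all genes), with a median log2 ratio of -0.17. Past 1.5-fold were 0 of 9, beside 12% of all genes at least 1.5-fold lower and 8.99% at least 1.5-fold higher. The lowest were the electron donor gene Por (26.2 and 20.9 RPKM) and the methyl oxidase gene Msmo1 (73.1 and 60.8 RPKM). The highest were Pgrmc1 (61.6 and 60.0 RPKM) and the mitochondrial thiolase gene Acat1 (26.8 and 27.7 RPKM).

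Isoprenoid side branches, which lead from farnesyl diphosphate to ubiquinone, dolichol and protein prenylation, had a median log2 ratio of 0.03, beside 0.01 for all genes. Of 15 compared, 5 were lower (49.2% of all genes) and 10 higher (50.8%) in KO-labelled cells. Past 1.5-fold were 0 of 15, beside 12% of all genes at least 1.5-fold lower and 8.99% at least 1.5-fold higher. Srd5a3 (27.3 and 21.1 RPKM), of dolichol synthesis, and the prenyl protease gene Zmpste24 (54.8 and 46.5 RPKM) were lowest. Rabggtb (41.0 and 50.3 RPKM), a subunit of the enzyme that prenylates Rab proteins, and Pdss2 (9.33 and 12.0 RPKM), of the ubiquinone side chain, were highest.

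Genes of cholesterol uptake and efflux went both ways, with 11 of 20 lower (49.2% of all genes), 9 higher (50.8%) and a median log2 ratio of -0.05. Among the lowest was the lysosomal cholesterol carrier gene Npc2, with 55.1 and 38.7 RPKM. At the other end were the cholesterol-esterifying enzyme gene Soat1 (23.3 and 33.4 RPKM) and the lipoprotein receptor gene Vldlr (14.2 and 27.3 RPKM). SREBP processing and degradation genes had a median of -0.01, with 14 of 25 lower. Their ends were Lpin1 (12.8 and 8.51 RPKM) and the extraction ATPase gene Vcp (63.0 and 43.9 RPKM), and the site-2 protease gene Mbtps2 (19.4 and 27.7 RPKM) and Paqr3 (6.24 and 11.9 RPKM).

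Further genes of fatty acid supply, elongation and desaturation held a few large differences around a median log2 ratio of -0.04. Lower values were found for 19 of 31, beside 49.2% of all genes compared. At least 1.5-fold lower were 5 of 31, a share near the 12% of all genes. Acss2, which makes acetyl-CoA from acetate, had 14.5 RPKM (388 reads) in WT-labelled cells and 3.36 RPKM (91 reads) in KO-labelled cells. Ptplad2 had 10.5 and 2.76 RPKM. Prkaa1, a catalytic subunit of AMP-activated kinase (33.0 and 39.6 RPKM), and Mcat, of mitochondrial fatty acid synthesis (24.8 and 31.4 RPKM), were highest. Triglyceride and phospholipid genes had 12 of 22 lower and a median of -0.05. Their ends were Dgat2 (28.2 and 16.9 RPKM) and Lpin1, and Pcyt2 (24.3 and 36.1 RPKM) and Gpam (14.7 and 22.7 RPKM), enzymes of triglyceride, phosphatidylethanolamine and glycerolipid synthesis.

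Genes of oxysterols and of the liver X receptors (LXRs), nuclear receptors that oxysterols activate, were the list farthest from 0. Of 9 compared, 8 were lower in KO-labelled cells (49.2% of all genes) and 5 at least 1.5-fold lower (12% of all genes). The median log2 ratio was -0.66. Ch25h, an interferon-inducible enzyme that makes 25-hydroxycholesterol, an oxysterol known to hold back SREBP cleavage, had 22.9 RPKM (292 reads) and 1.63 RPKM (21 reads), an interval of -4.53 to -3.17. Cyp7b1, which breaks that oxysterol down, had 50.9 RPKM (1042 reads) and 19.97 RPKM (413 reads). The receptor partners Rxra (33.5 and 32.3 RPKM) and Rxrb (28.5 and 29.6 RPKM) were level.

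**Figure D5:**
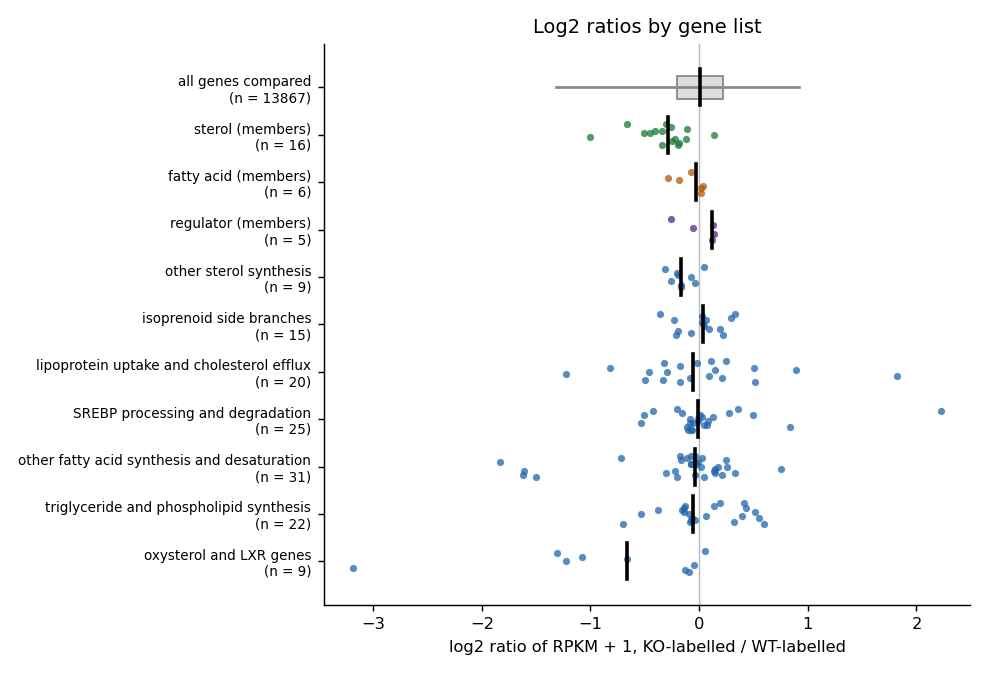
Log2 ratio of RPKM + 1, KO-labelled over WT-labelled (x axis), for each gene (points) of the member groups and of 7 further lists, with the median of each list as a black bar. The grey box holds the middle 50 percent of all 13867 genes compared and its line the 5th to 95th percentile. The sterol median is -0.28, the fatty acid median -0.03 and the oxysterol and LXR median -0.66.

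RNA editing was the other readout of the study, and no listed site lay in a member. None of the 654 sites listed for the WT-labelled library or the 110 listed for the KO-labelled library lay in any of the 29 genes, where 1.54% of all genes with at least 10 RPKM had a site in WT-labelled cells. A site that is not listed is not thereby shown to be unedited. The 7 further lists held 8 listed sites in WT-labelled cells, 7 of them in the 3′ untranslated region of Cds2, an enzyme of phosphoinositide synthesis chosen here after its values were seen. The 1 Cds2 site listed in both libraries, chromosome 2 position 132135616 (mm9), was edited in 94.4% of 18 reads (Wilson 95% interval 74.2 to 99.01) in the WT-labelled and 23.5% of 17 reads (9.56 to 47.3) in KO-labelled cells. Its adjusted p was 6.90e-05 (two-sided Fisher's exact test, Benjamini-Hochberg over 55 shared sites, of which 33 passed 0.05). That test covers counting error of reads only and compares these 2 libraries, not the genotypes. Cds2 itself had 22.1 and 20.6 RPKM, an interval of -0.19 to -0.004.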

How the data were processed

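Poly(A)+ RNA of Adar2+/+ and Adar2-/- fibroblasts was sequenced in 1 library each, and libraries were grouped by title. STAR 2.4.0d, SAMtools and the build mm9 appear, without roles, in the submitters' processing notes. The authors deposited RPKM per library with a log2 fold change and a GFOLD value, also on a log2 scale, per the file headers. The annotation, the counting rule and any use of strand were not stated in the sources used here. The E-FDR column, at 1 in every row, was not used. The authors' editing lists give the count of reads and of mismatches per site and the editing level as a fraction, per the file headers.

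Genes reaching 1 RPKM in either library were compared as log2((KO + 1)/(WT + 1)), a scale that understates differences of low genes. Whole reads were recovered from the deposited log2 fold change, which is that of reads plus 1, and RPKM: all 2193 genes at 0 in 1 library gave whole reads (tolerance 0.1). Of 17981 genes above 0, 92.9% had 1 solution, 1156 several and 113 none. For Srebf1, Fasn, Scd2 and Acly, which had several, the smallest reads were used, which give the widest interval. Intervals are exact 95% (Clopper-Pearson, conditional on the sum) or Wilson and cover counting error only. The recovery was tested on simulated data.

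The authors' log2 fold change lies 0.05 above that of the RPKM values. Named genes are the members, Adarb1 and, of each further list, the 2 highest and 2 lowest with at least 10 RPKM in a library, while Adar, Cdkn2a, Lbr and the markers were added for context with values known. Overlapping exons come from GENCODE M21 (GRCm38), by name only. Members and lists were chosen with earlier results of these data known. Other settings were pseudocounts of 0.1 and 5, other floors, a rescaling, the authors' values and members left out. Python 3.11.15, numpy 2.4.6, pandas 2.3.3 and scipy 1.17.1 were used. Of the genes that rule names, 1 is not reported here.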

Additional observations from a re-analysis of the deposited data

How the results depend on the processing

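The sterol branch kept a median log2 ratio below 0 and below that of the fatty acid branch under each of the 11 other settings, from -0.35 without members above 50 RPKM to -0.074 with the authors' GFOLD values, which are shrunken toward 0 by construction and put 1 sterol gene past 1.5-fold. Without members above 50 RPKM in a library, 9 of 9 sterol genes were lower. Sqle, the 1 higher sterol gene, dropped out there only through its KO-labelled value (48.7 and 53.7 RPKM), so the 9 of 9 adds no support. Some members share exons with another gene or have close copies, and leaving them out was chosen after seeing the data. It left 8 of 9 sterol genes lower with 1 past 1.5-fold, 1 of 3 fatty acid genes lower, and a regulator median of -0.056 in place of 0.12, since Srebf1 and Scap drop out. The fatty acid median changed sign with the members left out (0.01) and with the authors' log2 fold change (0.02), so it has no stable direction. Without Mvd and Tm7sf2, also chosen after seeing the data, 13 of 14 sterol genes were lower. These were the 2 sterol genes past 1.5-fold, so that 0 remained past it by construction. In the 150 bases before the start, 0 members held the ATCA form of the sterol element. Of 284 single-gene values under other settings, 267 stayed within the gene's counting interval, 17 moved, all with GFOLD values, and 1, Acly, changed sign. No paired analysis was possible because each genotype has 1 library. For the same reason leaving out a replicate was not possible.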

Other observations

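Some genes beside the lists' named ends, chosen after their values were seen, also differed in sterol and fatty acid handling. The cholesterol efflux pump gene Abca1, a known LXR target, had 3.45 RPKM (334 reads) in WT-labelled cells and 0.898 RPKM (88 reads) in KO-labelled cells. Nr1h3, which encodes LXR alpha, had 3.07 RPKM (59 reads) and 0.926 RPKM (18 reads), and Mylip, another known LXR target, had 25.6 and 15.8 RPKM. Acacb, the mitochondrial relative of Acaca, had 2.43 RPKM (195 reads) and 0.210 RPKM (17 reads), and the elongase gene Elovl7 had 13.4 and 3.72 RPKM. In the other direction, the esterifying enzyme gene Soat2 had 0.846 RPKM (17 reads) and 5.52 RPKM (112 reads). The fatty acid desaturase genes Fads1 (42.1 and 50.2 RPKM) and Fads2 (66.4 and 73.8 RPKM) were slightly higher in KO-labelled cells.

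Lbr encodes the other sterol C14 reductase beside Tm7sf2, the member with the largest difference. It had 41.8 RPKM (1401 reads) in WT-labelled cells and 42.1 RPKM (1427 reads) in KO-labelled cells, with an interval of the log2 reads ratio of -0.10 to 0.12. Per length, Lbr was thus above Tm7sf2 in both libraries.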
